A study of Mus musculus with 24 samples.

Results

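The collagen genes were the 44 of the 24532 genes in the deposited expression table whose symbol consists of Col, a type number, the letter a and a chain number. They comprised 11 fibrillar genes, 6 type IV genes of basement membranes, 7 beaded filament genes, 9 FACIT genes (chains that sit on the surface of fibrils), 4 transmembrane genes, 3 short chain network genes, 2 multiplexins, 1 anchoring fibril gene and 1 other gene. Their expression was compared between LKO and Ctrl mice in the liver, inguinal white adipose tissue (iWAT), gastrocnemius muscle (GM) and hypothalamus, with attention to the fibrillar and the basement membrane types.

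Collagens are trimers of chains wound into a triple helix, and they form most of the extracellular matrix of connective tissue. Fibrillar types I, III and V are secreted as procollagens, trimmed and cross-linked into the fibrils that give tissue its tensile strength, whereas type IV chains form the sheet-like network of basement membranes together with laminins and nidogens. In the liver, hepatic stellate cells and portal fibroblasts are the known main producers of fibrillar collagen, and type XVIII collagen, the precursor of endostatin, is made largely by hepatocytes.

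In LKO mice *Alb*-Cre, a recombinase driven by the albumin promoter and therefore active in hepatocytes, deleted floxed *Crif1*, the gene of a mitochondrial ribosome protein. Ctrl mice were *Crif1* flox/flox, so that both genotypes carried the floxed alleles. All mice were C57BL/6 and 8 weeks old, and 3 libraries were sequenced per genotype and tissue, numbered 1 to 3, which makes 24 libraries. Nothing in the labels tells if 1 mouse gave several tissues, and p-values measure the spread between these libraries.

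The values are FPKM, the fragments of a gene per kilobase of its transcript, scaled to the size of the library. Sequencing depth was 4.45 to 8.09 gigabases per library (median 5.19), as derived from the ratio of coverage to FPKM, and no read counts were used. In the liver, *Crif1* measured 14.6, 12.5 and 13.6 FPKM in Ctrl 1 to 3 and 5.40, 2.002 and 2.51 FPKM in LKO 1 to 3, so that LKO 1 kept the highest level of the LKO libraries. Its mean was 13.6 against 11.4 FPKM in iWAT, 14.1 against 14.4 in GM and 26.3 against 25.2 in the hypothalamus, Ctrl against LKO. Defining markers were highest in the labelled tissue, where the summed markers of a library were at least 42216 FPKM for hepatocytes in liver, 22544 for adipocytes in iWAT, 77311 for skeletal muscle in GM and 2071 for neurons in hypothalamus, against at most 248, 712, 701 and 6.60 FPKM elsewhere. Fold changes are differences of log2(FPKM + 1), which understates the change of genes near or under 1 FPKM. In bulk tissue, more cells of a type and more RNA per cell cannot be told apart.

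Ctrl tissues differed widely in which collagens they expressed. Of the 44 genes, 20 had their highest Ctrl mean in iWAT, 17 in the hypothalamus, 4 in GM and 3 in the liver, namely *Col13a1*, *Col18a1* and *Col27a1*. In iWAT the fibrillar chains led, with *Col3a1* at 1520, *Col1a2* at 794 and *Col1a1* at 695 FPKM. GM had the same leading chains at lower levels, with *Col3a1* at 72.2 and *Col1a2* at 63.9 FPKM. The hypothalamus was led by the type IV chain *Col4a2* at 41.1 FPKM, followed by the FACIT chains *Col16a1* at 22.2 and *Col9a2* at 19.3 FPKM. The liver stood apart, since 1 multiplexin, *Col18a1*, made up 77.0% of its summed collagen FPKM. The fibrillar chains *Col5a3* at 13.3 and *Col27a1* at 9.72 FPKM came next.

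**Figure D1:**
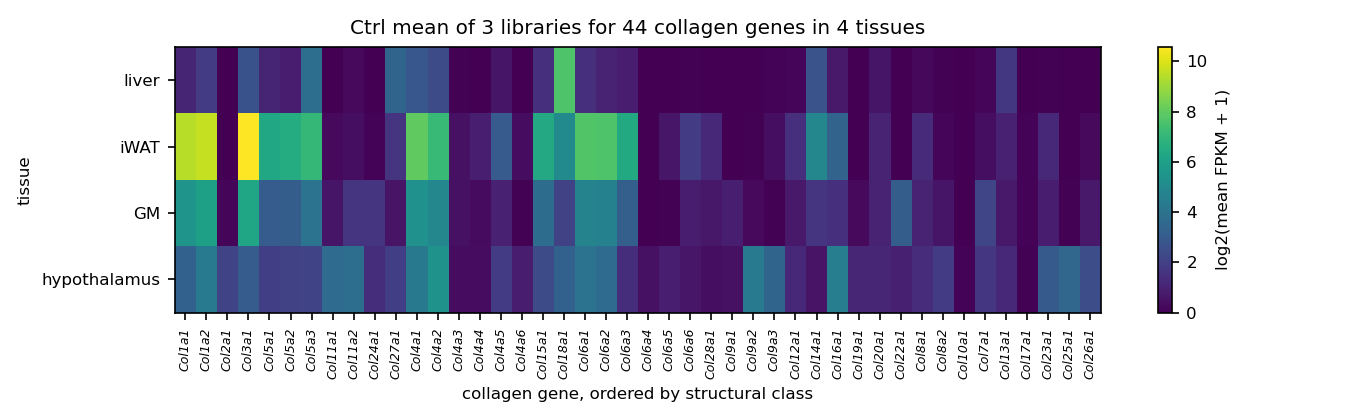
Heat map of the Ctrl mean (n = 3 libraries) of the 44 collagen genes, in columns by structural class, in the 4 tissues, in rows, with colour giving log2(mean FPKM + 1). The fibrillar chains *Col1a1*, *Col1a2* and *Col3a1* were highest in iWAT, and *Col18a1* and *Col27a1* were highest in the liver.

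The start regions of 5 collagen genes are shown because these genes were among those with large changes in the liver. They comprise a chain of type I and of type III, the paired type IV genes, and *Col27a1*, which went the other way. The sequences are RefSeq windows of build GRCm38.p6, 250 bases before to 50 after the start of transcription, read 5′ to 3′ on the strand of the gene, and capitals mark 3 promoter motifs on either strand. These are the TATA box, searched as TATAAA, then the CCAAT box, and the GC box, searched as GGGCGG. *Col1a2* lies at chr6:4505368-4505667 (plus strand), *Col3a1* at chr1:45311288-45311587 (plus), *Col4a1* at chr8:11312777-11313076 (minus), *Col4a2* at chr8:11312555-11312854 (plus) and *Col27a1* at chr4:63215162-63215461 (plus).
Col1a2: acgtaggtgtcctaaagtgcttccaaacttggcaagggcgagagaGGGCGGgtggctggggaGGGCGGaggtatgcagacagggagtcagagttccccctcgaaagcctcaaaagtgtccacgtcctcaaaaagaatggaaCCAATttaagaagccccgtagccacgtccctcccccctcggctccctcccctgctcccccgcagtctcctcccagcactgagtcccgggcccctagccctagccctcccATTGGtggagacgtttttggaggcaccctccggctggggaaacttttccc
Col3a1: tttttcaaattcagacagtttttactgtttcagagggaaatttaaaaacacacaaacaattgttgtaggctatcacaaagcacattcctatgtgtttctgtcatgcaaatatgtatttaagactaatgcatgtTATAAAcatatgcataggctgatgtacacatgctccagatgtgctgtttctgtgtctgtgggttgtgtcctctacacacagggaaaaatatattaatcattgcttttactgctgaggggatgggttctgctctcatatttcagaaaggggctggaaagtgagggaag
Col4a1: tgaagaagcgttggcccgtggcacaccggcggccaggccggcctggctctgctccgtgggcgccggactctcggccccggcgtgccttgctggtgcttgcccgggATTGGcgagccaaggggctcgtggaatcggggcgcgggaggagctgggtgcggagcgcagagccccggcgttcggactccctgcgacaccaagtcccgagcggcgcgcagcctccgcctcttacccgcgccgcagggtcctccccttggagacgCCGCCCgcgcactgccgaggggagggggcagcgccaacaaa
Col4a2: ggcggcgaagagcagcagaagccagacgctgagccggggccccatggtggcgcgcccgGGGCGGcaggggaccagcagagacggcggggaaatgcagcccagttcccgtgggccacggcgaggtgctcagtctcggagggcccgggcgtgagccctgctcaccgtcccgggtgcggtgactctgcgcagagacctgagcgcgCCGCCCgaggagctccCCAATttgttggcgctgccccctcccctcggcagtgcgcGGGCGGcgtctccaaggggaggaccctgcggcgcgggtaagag
Col27a1: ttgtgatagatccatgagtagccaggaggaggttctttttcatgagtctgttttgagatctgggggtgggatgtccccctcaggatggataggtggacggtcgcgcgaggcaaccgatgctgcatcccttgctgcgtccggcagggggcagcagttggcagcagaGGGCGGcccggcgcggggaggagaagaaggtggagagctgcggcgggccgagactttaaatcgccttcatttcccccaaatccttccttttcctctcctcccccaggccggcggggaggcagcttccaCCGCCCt

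*Col4a1* and *Col4a2* are transcribed away from each other from a shared start region, and their windows overlapped by 78 bases. Windows were found for 35 of the 44 genes, 38 windows of 300 bases in all. TATAAA occurred in 13.2% of the collagen windows and in 13.6% of all 32851 windows, and CCAAT in 34.2% and 37.4%. GGGCGG occurred in 60.5% of the collagen windows against 35.7% of all, and the median GC content was 59.8% against 52.7%. Of the 5 genes shown, only *Col3a1* held TATAAA, and it held neither of the other motifs. The windows of *Col4a1*, *Col4a2* and *Col1a2* held CCAAT and GGGCGG, while that of *Col27a1* held GGGCGG alone. A match describes the letters of a window and not a bound site.

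In the livers of LKO mice, 12 collagen genes were more highly expressed and 1 was less expressed than in Ctrl mice. All tested chains of types I, III, IV and VI, the type V chains *Col5a1* and *Col5a2* and the FACIT chains *Col14a1* and *Col16a1* rose, the type V chain *Col5a3* was not called, and the fibrillar chain *Col27a1* fell. Of the 6 type IV genes *Col4a1* and *Col4a2* were tested. A gene was tested when it reached 1 FPKM in at least 3 of the 6 libraries, and it was called when its fold change was 1.5 or more and its limma p, adjusted by Benjamini-Hochberg across the 10956 genes of the tissue, was under 0.05. By this criterion 23.9% of all genes tested were higher and 3.5% lower in LKO liver. Of the 44 collagen genes 17 were tested, and their median log2 change was 1.01 against 0.33 over all genes. *Col5a2*, *Col6a3* and *Col16a1* passed the filter through the LKO libraries alone and so had to differ, and the other 14 tested genes comprised 9 called higher and 1 called lower. For 14 of the 17 genes the genotypes were separated, with no value of 1 in the range of the other, as were 61.1% of all genes tested. Without the 3 genes that passed through LKO libraries alone, 11 of 14 were separated, and the median log2 change was 1.06. The 27 genes that were not tested stayed at or under 1.41 FPKM, a value reached by *Col4a5* in LKO 2, and *Col11a1* and *Col26a1* were at 0 in every liver library.

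The positive median over all genes depended on scaling. With the libraries scaled by median ratios, the all-gene median log2 change became -0.04, and 8.99% of genes were called higher and 8.53% lower. For the collagens the split was then 11 higher and 2 lower, since *Col16a1* came below the fold limit (log2 change 0.57) and *Col18a1* was called lower. Without *Col5a2*, *Col6a3* and *Col16a1*, which passed the filter through LKO libraries alone, the split was 9 higher and 2 lower of 14. The median over the 17 collagen genes was 0.74 on this scale.

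**Figure D2:**
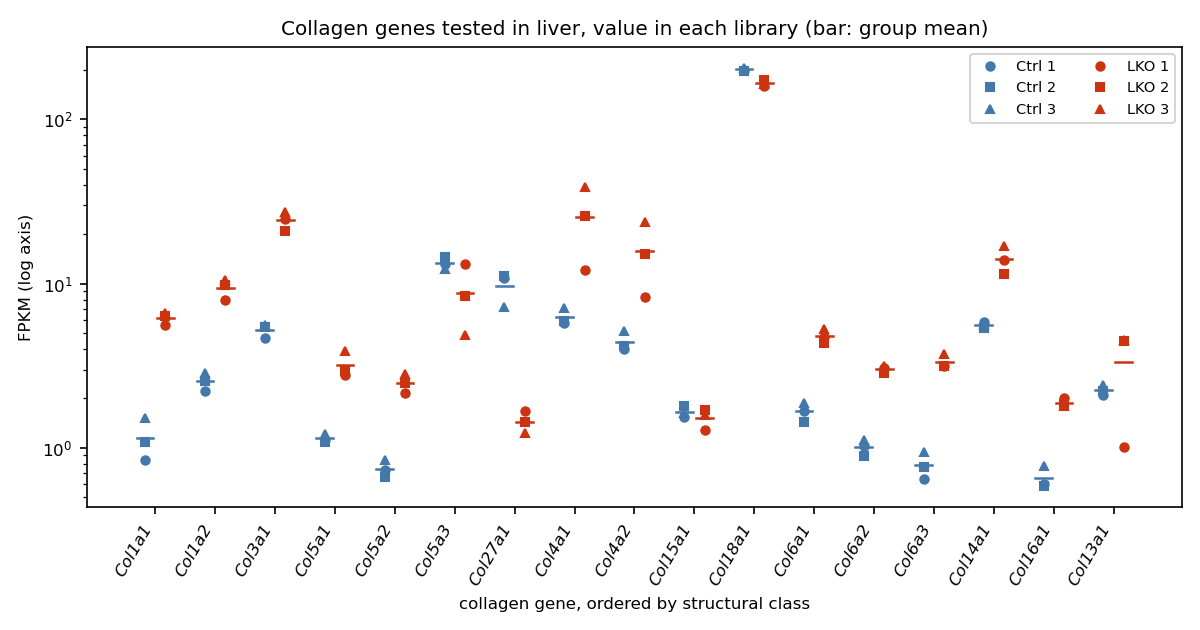
FPKM, on a log axis, of the 17 tested collagen genes in each liver library, with blue Ctrl points, red LKO points and bars for the group means. *Col1a1*, *Col1a2*, *Col3a1*, the type VI chains and *Col14a1* lay above all Ctrl libraries in all LKO libraries, and *Col27a1* lay below. The type VI chain *Col6a3* passed the filter through LKO libraries alone and so had to differ.

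Type I and type III chains, the main components of fibrils in skin, tendon and scar, showed some of the largest changes. *Col3a1* measured 4.68, 5.44 and 5.63 FPKM in Ctrl 1 to 3 and 24.9, 21.0 and 27.4 FPKM in LKO 1 to 3. Its log2 change was 2.02 ± 0.13 (SE, limma adjusted p = 0.000286), the largest rise among the collagens tested. Every LKO library was well above every Ctrl library, and the 3 LKO libraries differed little from each other. *Col1a1*, the chain that contributes most to the type I trimer, measured 0.845, 1.09 and 1.51 FPKM in Ctrl and 5.60, 6.39 and 6.58 FPKM in LKO livers. Its log2 change was 1.75 ± 0.14 (SE, limma adjusted p = 0.000638). *Col1a2*, its partner, measured 2.23, 2.54 and 2.85 FPKM in Ctrl and 7.96, 9.74 and 10.6 FPKM in LKO livers, a log2 change of 1.55 ± 0.14 (SE, limma adjusted p = 0.000881). The groups were apart for either chain, though the Ctrl values of *Col1a1* spread around 1 FPKM (1.15 ± 0.34, SD). After median-ratio scaling the log2 changes were 1.62 for *Col3a1*, 1.44 for *Col1a1* and 1.19 for *Col1a2*.

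Of the type V chains, which are built into type I fibrils and limit their width, *Col5a1* and *Col5a2* rose and *Col5a3* was not called. *Col5a1* measured 1.12, 1.09 and 1.22 FPKM in Ctrl and 2.77, 2.95 and 3.92 FPKM in LKO livers, a log2 change of 0.97 ± 0.13 (SE, limma adjusted p = 0.00264). *Col5a2*, a neighbour of *Col3a1* on chromosome 1, measured 0.734, 0.662 and 0.842 FPKM in Ctrl and 2.17, 2.47 and 2.84 FPKM in LKO livers, and its log2 change was 1.00 ± 0.11 (SE, limma adjusted p = 0.00158). Both chains were separated between the genotypes, but at levels of a few FPKM, and *Col5a2* passed the filter through LKO libraries alone and so had to differ. After quantile normalization both came below the fold limit (log2 change 0.55 for *Col5a1* and 0.57 for *Col5a2*). *Col5a3*, by contrast, was the second most abundant collagen of Ctrl liver, at 13.1, 14.4 and 12.3 FPKM, and measured 13.2, 8.36 and 4.89 FPKM in LKO 1 to 3. Here LKO 1 lay within the Ctrl range and the other LKO libraries below it. Its log2 change of -0.63 ± 0.29 (SE) was not called (limma adjusted p = 0.11). Without LKO 1 the log2 change was -0.94 and was called (limma adjusted p = 0.0027), and without LKO 3 it was -0.31 and not called (limma adjusted p = 0.238). A fit of all 24 libraries with a shared variance called *Col5a3* lower, and called 3167 of all 10956 genes.

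*Col27a1*, a fibrillar chain best known from cartilage, was the only collagen called lower. It measured 10.8, 11.2 and 7.18 FPKM in Ctrl 1 to 3 and 1.68, 1.43 and 1.23 FPKM in LKO 1 to 3. All LKO libraries were far below the lowest Ctrl library and close to each other. The log2 change was -2.12 ± 0.18 (SE, limma adjusted p = 0.000685), and -2.43 after median-ratio scaling. Among Ctrl tissues *Col27a1* was highest in the liver, at a mean of 9.72 FPKM, followed by the hypothalamus at 2.93, iWAT at 1.97 and GM at 0.465 FPKM.

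The type IV chains *Col4a1* and *Col4a2*, which assemble with each other into the most widespread basement membrane network, also rose, with a wide spread over the LKO livers. *Col4a1* measured 5.79, 5.93 and 7.13 FPKM in Ctrl 1 to 3 and 12.1, 25.9 and 38.7 FPKM in LKO 1 to 3. Its log2 change was 1.73 ± 0.37 (SE, limma adjusted p = 0.0115). *Col4a2* measured 4.01, 4.15 and 5.17 FPKM in Ctrl and 8.33, 15.2 and 23.9 FPKM in LKO livers, a log2 change of 1.52 ± 0.33 (SE, limma adjusted p = 0.0119). For both chains LKO 1 was the lowest and LKO 3 the highest of the LKO libraries, and none overlapped with Ctrl. With ordinary in place of moderated variances neither chain was called (adjusted p = 0.0703 for each). The annotated exons of both genes share 22 bases on opposite strands, and the library kit does not keep strand. Of the other type IV genes, *Col4a5* came nearest to the filter, with 0.520, 0.516 and 0.486 FPKM in Ctrl and 0.971, 1.41 and 1.26 FPKM in LKO livers.

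Type VI chains, which form beaded microfibrils around cells, rose together. *Col6a1* measured 1.68, 1.43 and 1.88 FPKM in Ctrl and 4.71, 4.36 and 5.33 FPKM in LKO livers, a log2 change of 1.12 ± 0.12 (SE, limma adjusted p = 0.00149). *Col6a2* measured 1.02, 0.887 and 1.12 FPKM in Ctrl and 3.09, 2.87 and 3.17 FPKM in LKO livers, with a log2 change of 1.01 ± 0.10 (SE, limma adjusted p = 0.00123). *Col6a3* measured 0.648, 0.768 and 0.946 FPKM in Ctrl and 3.16, 3.13 and 3.72 FPKM in LKO livers, with a log2 change of 1.28 ± 0.12 (SE, limma adjusted p = 0.000898). All 3 were separated, with little spread among the LKO libraries, but *Col6a3* passed the filter through LKO libraries alone and so had to differ. The FACIT chain *Col14a1* measured 5.82, 5.36 and 5.60 FPKM in Ctrl and 13.9, 11.4 and 16.9 FPKM in LKO livers, and rose by a log2 change of 1.18 ± 0.15 (SE, limma adjusted p = 0.00223). *Col16a1*, the other FACIT chain tested, measured 0.603, 0.584 and 0.775 FPKM in Ctrl and 2.02, 1.85 and 1.79 FPKM in LKO livers, with a log2 change of 0.80 ± 0.10 (SE, limma adjusted p = 0.00208). Neither FACIT chain overlapped between genotypes, though *Col16a1* passed the filter through LKO libraries alone and so had to differ. It was below the fold limit after quantile normalization as well (0.38).

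The multiplexins and the transmembrane chain tested were not called. *Col18a1* measured 200, 198 and 206 FPKM in Ctrl and 159, 173 and 163 FPKM in LKO livers, so that every LKO library was below every Ctrl library. Its log2 change of -0.28 ± 0.10 (SE, limma adjusted p = 0.0476) was under the fold limit, and after median-ratio scaling it was -0.72 and called (limma adjusted p = 0.00785). *Col15a1*, the other multiplexin, measured 1.54, 1.80 and 1.62 FPKM in Ctrl and 1.29, 1.70 and 1.59 FPKM in LKO livers, with overlapping groups (log2 change -0.07 ± 0.11, limma adjusted p = 0.591). *Col13a1*, a transmembrane collagen of cell adhesion sites, measured 2.10, 2.21 and 2.41 FPKM in Ctrl and 1.01, 4.49 and 4.53 FPKM in LKO livers. LKO 1 was below all Ctrl libraries and the other LKO libraries above them, and the log2 change of 0.28 ± 0.37 was not called (limma adjusted p = 0.541). Without LKO 1 it was 0.77 and called (limma adjusted p = 0.000486), and without LKO 2 or LKO 3 it was 0.041 or 0.037.

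The summed collagen FPKM was 259, 260 and 266 in Ctrl and 270, 301 and 325 in LKO livers. *Col18a1* held most of it, 77.0% in Ctrl and 55.4% in LKO livers. Without *Col18a1* the sum was 59.0, 61.4 and 60.2 FPKM in Ctrl and 111, 127 and 161 FPKM in LKO livers, with LKO 1 lowest and LKO 3 highest.

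The LKO livers differed in some collagens far more than in others. On the log2 scale the range over the 3 LKO libraries was 1.61 for *Col4a1*, 1.41 for *Col4a2*, 1.46 for *Col13a1* and 1.27 for *Col5a3*, and at most 0.52 for the other tested collagens. *Col4a1* and *Col4a2* increased in the order LKO 1, LKO 2, LKO 3, and *Col5a3* decreased in that order. Markers of several cell types were compared as sums of FPKM, and their counts stand beside 23.9% of all liver genes called higher, or 8.99% after median-ratio scaling. Endothelial markers summed to 112 to 119 in Ctrl and to 136, 177 and 216 in LKO 1 to 3 (4 of 10 tested genes called higher, and after median-ratio scaling 1 of 10, near the share of all genes), and macrophage markers to 72.7 to 73.5 and to 143, 177 and 240 (5 of 5 called higher on either scale). Portal fibroblast and mesothelial markers summed to 18.4 to 19.3 and to 33.9, 57.9 and 82.6 (3 of 3 called higher, 2 after median-ratio scaling), with *Gli1* under 0.1 FPKM. These sums, like those of the stellate cell, myofibroblast and fibroblast markers, increased in the same order of LKO libraries as *Col4a1*.

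Hepatic stellate cell markers summed to 86.3 to 93.5 FPKM in Ctrl and to 159, 170 and 190 in LKO 1 to 3, and 9 of the 9 tested were called higher, 4 after median-ratio scaling. Myofibroblast markers summed to 6.70 to 8.17 and to 10.3, 17.7 and 20.3 (2 of 3 called higher, 1 after median-ratio scaling), and fibroblast markers to 32.4 to 37.0 and to 38.0, 58.8 and 61.7 (3 of 5 called higher, 1 after median-ratio scaling). Cholangiocyte markers, of bile duct cells, summed to 31.1 to 33.1 and to 44.1, 94.7 and 80.7 (6 of 6 called higher, 4 after median-ratio scaling). *Krt7* and *Epcam* among these, *Cd34* of the portal list and *Pdgfra* of the fibroblast list passed the filter through LKO libraries alone and so had to differ, and without them the counts were 4 of 4, 2 of 2 and 2 of 4, and after median-ratio scaling 3 of 4, 1 of 2 and 0 of 4. Hepatocyte markers summed to 55952 to 58714 in Ctrl and to 67742, 54576 and 42216 in LKO 1 to 3, the same order as *Col5a3*, and 1 of 6 was called lower. The part of these cell types in the collagen changes was not tested.

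**Figure D3:**
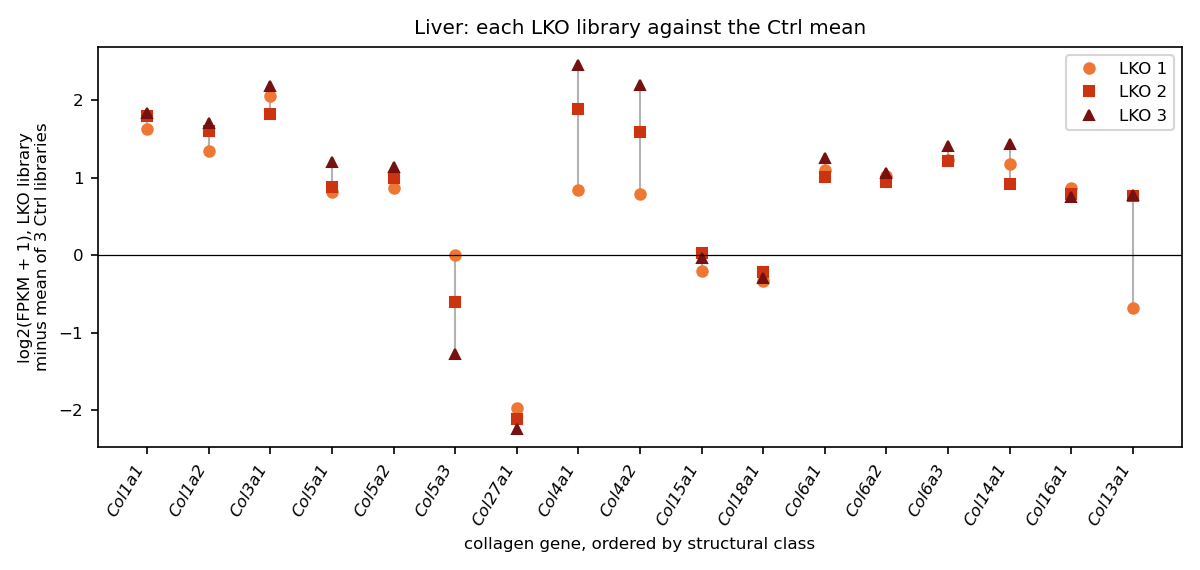
Log2 change of each LKO liver library from the Ctrl mean, on the log2(FPKM + 1) scale, for the tested collagen genes. The 3 LKO libraries lay close together for most genes and spread widely for *Col4a1*, *Col4a2*, *Col5a3* and *Col13a1*.

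Fibrillar and basement membrane types were compared within each library, as the mean log2(FPKM + 1) of the tested fibrillar genes minus that of the tested type IV genes. In the liver the fibrillar mean was 2.10 ± 0.04 in Ctrl and 2.75 ± 0.03 in LKO (SD, n = 3), a difference of 0.65 (0.59 without *Col5a2*, which passed the filter through LKO libraries alone), and the type IV mean was 2.65 ± 0.15 and 4.28 ± 0.76, a difference of 1.63. The fibrillar minus type IV level was -0.50, -0.45 and -0.71 in Ctrl and -0.69, -1.67 and -2.23 in LKO livers. LKO 1 lay within the Ctrl range and the other LKO libraries below it, so the groups overlapped. The difference between LKO and Ctrl was -0.98, or -1.04 without *Col5a2*, a choice made after its values were seen, and it ranged from -1.40 to -0.63 when each library was left out in turn.

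The composition of the fibrillar group set much of that value. The 7 fibrillar genes included *Col27a1* and *Col5a3*, and without them, a choice made after their values were seen, the difference was -0.17. With types I, III and V including *Col5a3* it was -0.52, and with *Col15a1* and *Col18a1* counted as basement membrane types it was -0.08. In the other tissues the difference of the fibrillar minus type IV level, LKO minus Ctrl, was -0.11 in iWAT, 0.11 in GM and -0.11 in the hypothalamus, and the groups overlapped in each. The gene sets differed from that of the liver, with 7 fibrillar genes in iWAT, 8 in GM and 11 in the hypothalamus. The type IV genes there included *Col4a5*. In iWAT its log2 change of -0.50 was opposite to 0.15 for *Col4a1* and 0.33 for *Col4a2*, and the type IV mean changed by -0.007. No tissue therefore separated the genotypes by this measure.

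**Figure D4:**
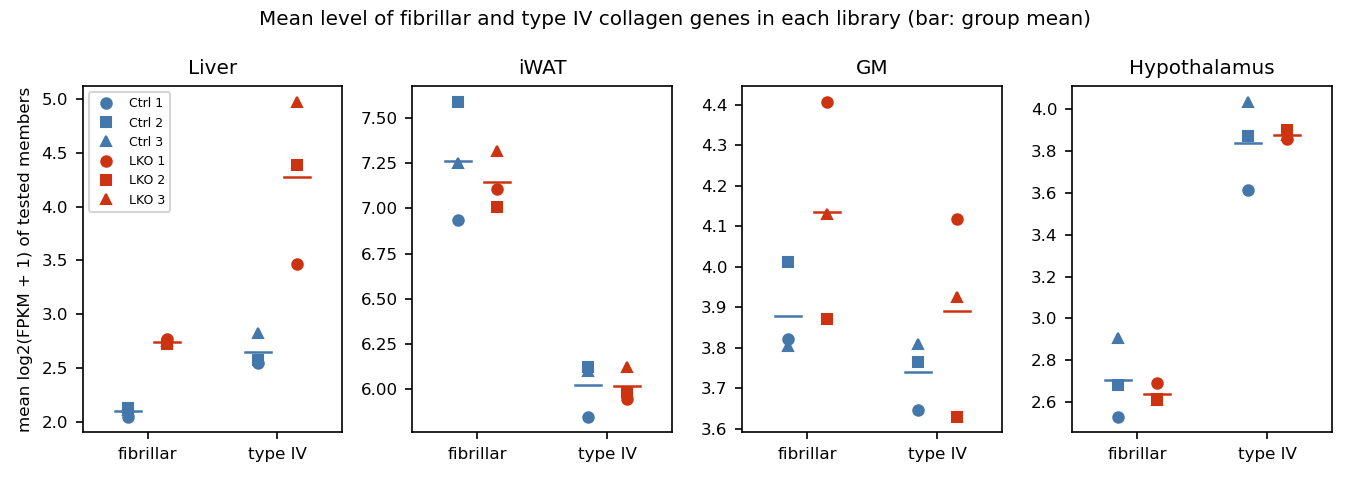
Mean log2(FPKM + 1) of the tested fibrillar genes and of the tested type IV genes in each library of the 4 tissues, with bars for the group means and a separate axis range per tissue. In the liver both means were higher in LKO than in Ctrl, and the type IV mean spread over the LKO libraries.

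Chains that assemble into the same protein were compared as ratios of FPKM within a library, which do not depend on scaling. The ratio of *Col4a1* to *Col4a2* was 1.44, 1.43 and 1.38 in Ctrl and 1.45, 1.70 and 1.62 in LKO livers. It was 1.76, 1.86 and 1.80 in Ctrl and 1.73, 1.49 and 1.55 in LKO iWAT. Both comparisons were separated and reached p = 0.1, the smallest that an exact permutation test of 3 against 3 allows (two-sided), and the adjusted value over 16 such tests was 0.711. The ratio was thus a little higher in LKO liver and a little lower in LKO iWAT, and neither difference could pass a threshold of 0.05. In the liver the other ratios were not tested because a chain was under 1 FPKM in a Ctrl library. There *Col1a1* to *Col1a2* was 0.378, 0.431 and 0.531 in Ctrl and 0.703, 0.655 and 0.623 in LKO, and *Col6a3* to *Col6a1* was 0.385, 0.536 and 0.502 in Ctrl and 0.672, 0.718 and 0.699 in LKO. Both were higher in every LKO library. *Col3a1* to *Col1a1* was 5.54, 4.98 and 3.72 in Ctrl and 4.45, 3.29 and 4.16 in LKO, and *Col6a1* to *Col6a2* was 1.65, 1.61 and 1.68 in Ctrl and 1.53, 1.52 and 1.68 in LKO, and for both of these ratios the groups overlapped.

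Genes that act on collagen were counted in lists by role, beside 23.9% of all liver genes called higher and 3.5% lower. Of 14 tested genes of chain modification and folding, 6 rose and 0 fell in LKO liver, with a median log2 change of 0.51 beside 0.33 over all genes. The median was 0.43 without *P3h3* and *Creb3l1*, which passed the filter through LKO libraries alone. The genes that rose included *Serpinh1*, the collagen chaperone HSP47 (1.55 ± 0.11 SE, limma adjusted p = 0.000388), the prolyl 4-hydroxylase subunit *P4ha2* (1.21), *Crtap* of the prolyl 3-hydroxylation complex (1.08) and the transcription factor *Creb3l1* (0.79). Of 8 tested genes of propeptide cleavage and cross-linking, 7 rose and 1 fell, with a median of 0.77. The procollagen C-proteinase enhancer *Pcolce* rose by 1.37, the lysyl oxidases *Loxl2* and *Loxl4* by 1.10 and 0.82, and the N-proteinase *Adamts2* by 0.93, while the C-proteinase *Bmp1* had a log2 change of -0.79 (limma adjusted p = 0.0136), and was the gene that fell.

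Of 6 tested genes of collagen breakdown and its inhibitors, 4 rose, with a median log2 change of 1.04. The median was 0.77 without *Mmp12* and *Mmp2*, which passed the filter through LKO libraries alone. The 4 that rose were the metalloproteinases *Mmp12* (2.25) and *Mmp2* (1.04) and the inhibitors *Timp3* (1.10) and *Timp2* (1.03). Of 8 tested genes of fibril-associated matrix, 6 rose, with a median of 1.22, among them periostin (*Postn*, 1.52), *Sparc* (1.48) and the small proteoglycans lumican (*Lum*, 1.43) and decorin (*Dcn*, 1.305). Fibronectin (*Fn1*), an adhesive matrix glycoprotein that was named here after its value was seen, measured 266, 254 and 248 FPKM in Ctrl and 237, 206 and 218 FPKM in LKO livers. All its LKO libraries were below all Ctrl libraries, the log2 change of -0.22 was not called (limma adjusted p = 0.122), and after median-ratio scaling it was -0.66 and called lower (limma adjusted p = 0.0206). Partners of type IV collagen in basement membranes were split, with 4 of 11 tested rising, 1 falling and a median of 0.54. Nidogen-1 (*Nid1*, 1.97) and the laminin chains *Lamc1* (1.28) and *Lamb1* (1.06) rose, and the laminin chain *Lama3*, which passed the filter through Ctrl libraries alone and so had to differ, had a log2 change of -0.76.

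Of 4 tested collagen receptors, the 2 called higher were *Ddr1* (log2 change 1.58) and *Lair1* (0.73), which passed the filter through LKO libraries alone, and the integrin subunits *Itgb1* (0.58) and *Itga1* (0.55) were under the fold limit. All 6 tested genes of the list of TGF-beta ligands and readouts rose, with a median log2 change of 1.00, led by *Tgfbi* (1.45), *Ctgf* (1.23), *Smad7* (1.04) and *Tgfb1* (0.96). In each of these lists 1 to 3 genes had no Ctrl library at 1 FPKM, passed the filter through the LKO libraries alone and so had to differ, among them *Creb3l1*, *Adamts2*, *Loxl2*, *Mmp2* and *Mmp12*. Without such genes the counts of genes higher were 4 of 12 tested for chain modification, 4 of 5 for cleavage and cross-linking, 2 of 4 for breakdown, 6 of 7 for fibril-associated matrix, 4 of 9 for basement membrane partners, 0 of 2 for receptors and 5 of 5 for TGF-beta. *Bmp1*, which was named after its value was seen, lost its call with ordinary variances (adjusted p = 0.0644) and without any 1 of the Ctrl libraries or LKO 2. *P4ha2*, *Loxl4* and *Sparc* lost their call after median-ratio scaling and when single libraries were left out, *Lair1* after median-ratio scaling, *Creb3l1*, *Adamts2* and *Tgfb1* after quantile normalization, and *Ddr1* and *Lamc1* with ordinary variances. After median-ratio scaling, where 8.99% of all genes were called higher, the counts higher without the genes that passed through LKO libraries alone were 2 of 12 for chain modification, 1 of 5 for cleavage and cross-linking, 2 of 4 for breakdown, 5 of 7 for fibril-associated matrix, 3 of 9 for basement membrane partners, 0 of 2 for receptors and 4 of 5 for TGF-beta.

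In iWAT, the tissue with the highest collagen expression, no collagen passed the adjusted criterion, nor did any other of the 12288 genes. Of 23 tested genes 4 had an unadjusted p under 0.05, as had 15.0% of all genes (1842 of 12288), and 1 passed the unadjusted criterion (a fold change of at least 1.5 and an unadjusted p under 0.05), where 3.25% of all genes passed. This was *Col28a1*, a beaded filament relative of type VI known from peripheral nerve, which measured 0.955, 1.41 and 1.39 FPKM in Ctrl and 2.25, 2.49 and 3.23 FPKM in LKO. Its log2 change was 0.70 ± 0.14 (SE, unadjusted p = 0.00188, limma adjusted p = 0.116), and all LKO libraries were above all Ctrl libraries. Summed Schwann cell markers, of the sheath cells of nerves, were 317, 387 and 420 FPKM in Ctrl and 430, 512 and 506 FPKM in LKO iWAT, and their part in this difference was not tested. In a fit of all 24 libraries with a shared variance, *Col28a1* was called (limma adjusted p = 0.000132), where 317 of 12288 genes were called.

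The type I and III chains of iWAT had lower means in LKO but overlapping libraries. *Col3a1* measured 1027, 2057 and 1476 FPKM in Ctrl and 1114, 996 and 1372 FPKM in LKO. *Col1a1* measured 425, 968 and 693 FPKM in Ctrl and 457, 496 and 629 FPKM in LKO, and *Col1a2* measured 516, 1082 and 784 FPKM in Ctrl and 536, 579 and 697 FPKM in LKO. For each of these chains Ctrl 2 was the highest and Ctrl 1 among the lowest libraries. Their log2 changes were -0.34 for *Col3a1*, -0.33 for *Col1a1* (limma adjusted p = 0.639) and -0.34 for *Col1a2*, and none was called. Leaving out Ctrl 1 gave -0.60 for *Col3a1*, -0.65 for *Col1a1*, -0.62 for *Col1a2* and -0.74 for *Col4a5*, all past the unadjusted criterion. Leaving out Ctrl 2 gave -0.098 for *Col3a1*, -0.055 for *Col1a1*, -0.084 for *Col1a2* and -0.31 for *Col4a5*, none past it. In the same libraries the summed macrophage markers were 157, 395 and 244 FPKM in Ctrl and 165, 172 and 222 FPKM in LKO, highest in Ctrl 2 as well, and fibroblast and adipose progenitor markers were 1836, 2367 and 2174 FPKM in Ctrl and 1614, 1570 and 1549 FPKM in LKO. The part of these cells in the fibrillar values was not tested.

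The paired type IV chains of iWAT had higher means in LKO, and neither was called. *Col4a2* measured 138, 133 and 146 FPKM in Ctrl and 168, 175 and 183 FPKM in LKO, with no overlap and a log2 change of 0.33 (limma adjusted p = 0.146). *Col4a1* measured 243, 248 and 263 FPKM in Ctrl and 290, 261 and 284 FPKM in LKO, which overlapped slightly (0.15, limma adjusted p = 0.462). Endothelial markers, of cells that rest on type IV networks, summed to 203, 287 and 283 FPKM in Ctrl and 313, 343 and 410 FPKM in LKO, and their part was not tested. *Col4a5*, a type IV chain of other networks, measured 4.65, 9.19 and 7.40 FPKM in Ctrl and 3.797, 4.55 and 5.43 FPKM in LKO, a log2 change of -0.50.

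None of the remaining iWAT collagens was called. *Col5a3* measured 152, 122 and 113 FPKM in Ctrl and 188, 150 and 179 FPKM in LKO (log2 change 0.42, limma adjusted p = 0.242), while *Col5a1* (-0.23) and *Col5a2* (-0.33) followed types I and III in sign. *Col27a1*, which fell in the liver, measured 1.91, 2.19 and 1.82 FPKM in Ctrl and 2.76, 2.32 and 3.17 FPKM in LKO iWAT (0.33, limma adjusted p = 0.254). Log2 changes were -0.12 for *Col6a1*, -0.09 for *Col6a2*, -0.08 for *Col6a3*, -0.23 for *Col14a1*, -0.17 for *Col16a1*, 0.32 for *Col15a1* and 0.01 for *Col18a1*. Over the 23 tested genes the median was -0.09 against -0.01 over all genes, with 10 positive and 13 negative, and without Ctrl 2 it was 0.07 with 16 positive and 7 negative. Libraries were separated for 4 of the 23, *Col27a1*, *Col28a1* and *Col4a2* higher and *Col6a6* lower, where 20.8% of all genes were. The 21 genes not tested stayed at or under 1.43 FPKM, the value of *Col13a1*.

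No gene of the pathway lists passed the adjusted criterion in iWAT. The unadjusted criterion, past which 3.25% of all genes lay, was passed by 1 of 17 tested genes of chain modification (lower), 0 of 11 of cleavage and cross-linking, 2 of 13 of breakdown (higher), 2 of 13 of fibril-associated matrix (1 higher and 1 lower), 2 of 13 basement membrane partners (higher), 1 of 5 receptors (lower) and 2 of 10 of TGF-beta (higher). The log2 changes that ranked highest by size within each list were those of the laminin chains *Lamc3* (0.89) and *Lama5* (0.84), thrombospondin-1 (*Thbs1*, 1.15), fibronectin (*Fn1*, -0.66), the inhibitors *Timp3* (0.73) and *Timp4* (0.60), the receptors *Ddr1* (-0.94) and *Itga1* (0.40), *Creb3l1* (-0.65), *P4ha2* (-0.43), *Loxl1* (-0.56), *Pcolce2* (-0.46), *Ctgf* (0.82) and *Smad7* (0.61). Of these genes, picked for the size of their change, *Lamc3*, *Lama5*, *Thbs1*, *Fn1*, *Timp3*, *Timp4*, *Ddr1*, *Creb3l1* and *Smad7* were called in the fit of all 24 libraries. That fit called 317 of 12288 genes in iWAT.

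In GM, none of the 23 tested collagens passed either criterion, where 0.901% of 10877 genes passed the unadjusted one. *Col11a2* (log2 change 0.27, limma adjusted p = 0.71) and *Col5a2* (0.29, limma adjusted p = 0.724) had an unadjusted p under 0.05, 2 of 23 beside 6.83% of all genes (743 of 10877). That count was 10 after median-ratio scaling (8.68% of all genes) and 12 without LKO 2 (5.49%). It was 0 without LKO 1 (14.7%), without LKO 3 (3.69%) and without Ctrl 1 (5.26%). The log2 change was positive for 22 of the 23, with a median of 0.24 against -0.03 over all genes, and 1 library contributed much of it. *Col1a1* measured 36.7, 46.1 and 48.2 FPKM in Ctrl and 78.1, 44.3 and 53.6 FPKM in LKO (0.39). *Col3a1* measured 70.4, 86.0 and 60.2 FPKM in Ctrl and 116, 58.7 and 74.4 FPKM in LKO (0.16), and *Col4a1* measured 36.8, 40.5 and 42.2 FPKM in Ctrl and 58.1, 34.0 and 45.4 FPKM in LKO (0.17). In each case LKO 1 was the highest of all libraries and LKO 2 lay within or below the Ctrl range. *Col4a2* measured 25.9, 29.1 and 32.1 FPKM in Ctrl and 40.5, 31.3 and 33.5 FPKM in LKO (0.26).

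Without LKO 1 the median over the tested collagens in GM was 0.13, 18 were positive and 5 negative, and the log2 changes of *Col3a1* (-0.11), *Col4a1* (-0.02) and *Col18a1* (-0.02) were negative. LKO 1 also had the highest summed adipocyte, lymph node, macrophage and fibroblast markers of the GM libraries. Adipocyte markers were 482, 549 and 239 FPKM in Ctrl and 712, 263 and 303 FPKM in LKO, lymph node markers 5.90, 4.70 and 0.121 FPKM in Ctrl and 25.4, 0.0874 and 0.0752 FPKM in LKO, and macrophage markers 11.2, 12.0 and 10.9 FPKM in Ctrl and 21.0, 12.7 and 12.4 FPKM in LKO. Fibroblast markers were 177, 193 and 159 FPKM in Ctrl and 228, 167 and 172 FPKM in LKO. Tendon and cartilage markers were 37.3, 44.2 and 59.5 FPKM in Ctrl and 65.3, 60.2 and 72.2 FPKM in LKO, and all LKO libraries were above all Ctrl libraries. Their part in the collagen values of GM was not tested.

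The other GM collagens lay in the same range. The log2 changes were 0.33 for *Col1a2*, 0.18 for *Col5a1*, 0.29 for *Col5a2*, 0.28 for *Col6a1*, 0.32 for *Col6a2*, 0.34 for *Col6a3*, 0.40 for *Col15a1*, 0.15 for *Col18a1*, 0.19 for *Col14a1* and 0.31 for *Col16a1*. The 1 negative gene was *Col7a1*, the anchoring fibril collagen of skin, at 2.16, 2.19 and 6.44 FPKM in Ctrl and 1.45, 2.36 and 1.502 FPKM in LKO (-0.62, limma adjusted p = 0.798), where Ctrl 3 alone was high. Libraries were separated for *Col11a2* and *Col8a1*, both higher in LKO, against 11.6% of all genes. The 21 genes not tested stayed at or under 1.13 FPKM. In the pathway lists 1 gene passed the unadjusted criterion, which 0.901% of all genes passed. It was fibromodulin (*Fmod*, 0.72), a proteoglycan that binds type I fibrils. Other log2 changes that ranked high within a list were those of *Sparc* (0.58), *Ddr1* (-0.47), *Timp1* (0.45), *Ctgf* (0.43), *Lox* (0.36), *Lamb1* (0.33), *Mmp2* (0.33), *Pcolce* (0.32), *P3h2* (0.32), *Nid2* (0.26), *Plod2* (0.23) and *Ddr2* (0.13).

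In the hypothalamus, none of the 32 tested collagens passed either criterion, where 0.333% of 13828 genes passed the unadjusted and 0.0217% the adjusted one, and 0 of the 32 had an unadjusted p under 0.05 in limma. Log2 changes ran from -0.27 for *Col6a1* to 0.38 for *Col25a1*, a transmembrane collagen of neurons, with a median of -0.07 against -0.01 over all genes. They were positive for 7 genes and negative for 25. The median was -0.16 without Ctrl 1, and -0.0002 without Ctrl 3, with 16 positive and 16 negative. *Col4a2*, the most abundant collagen there, measured 31.4, 43.8 and 48.1 FPKM in Ctrl and 36.0, 41.5 and 40.6 FPKM in LKO (-0.04), so that the LKO libraries lay within the Ctrl range. *Col1a1* measured 6.81, 7.94 and 11.4 FPKM in Ctrl and 9.80, 6.68 and 7.53 FPKM in LKO (-0.10), also overlapping. *Col3a1* (-0.23), *Col4a1* (0.16) and *Col5a3* (0.29) were not called. Libraries were separated for 4 of the 32 genes, *Col27a1* and *Col5a3* higher and *Col24a1* and *Col6a3* lower in LKO, where 9.7% of all genes were. The 12 genes not tested stayed at or under 1.09 FPKM. Of the genes in the pathway lists 1, *Ctgf* (-0.74), passed the unadjusted criterion, beside 0.333% of all genes.

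**Figure D5:**
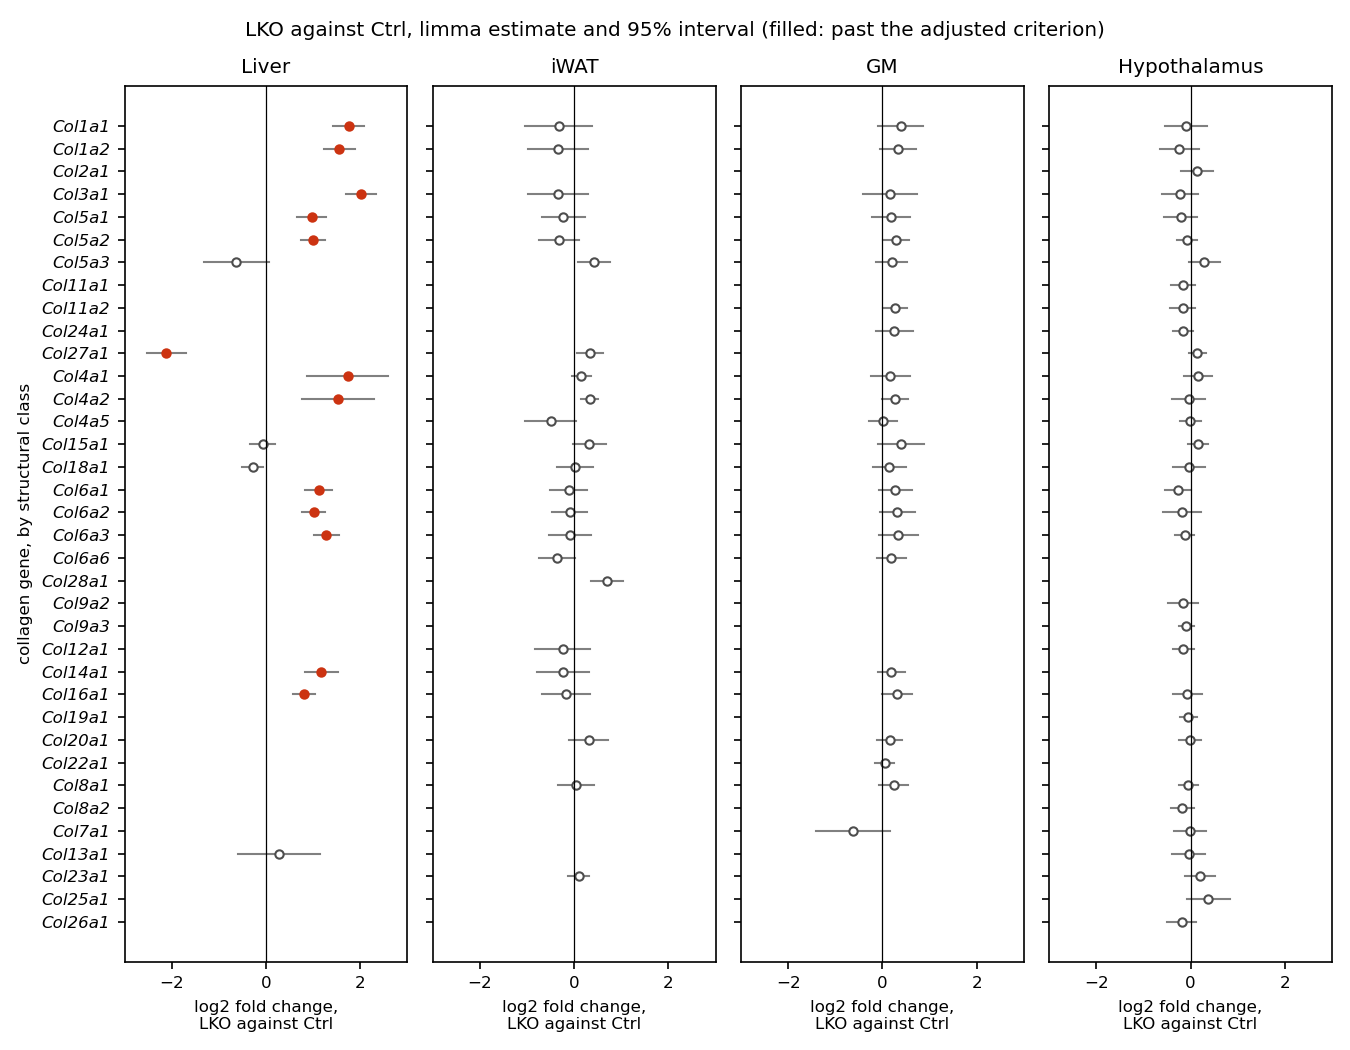
Log2 change, LKO minus Ctrl, of the tested collagen genes in each of the 4 tissues, with 95% confidence intervals from limma and filled points for genes past the adjusted criterion. Changes past the adjusted criterion occurred in the liver, with *Col27a1* the 1 gene called lower.

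The difference of the LKO effect between the tissues was tested itself, in a limma fit of all 24 libraries. It passed (Benjamini-Hochberg adjusted p under 0.05) for 18 of 36 tested collagens, where 33.5% of 15794 genes passed. The count was 20 after median-ratio scaling (22.6% of all genes) and 16 after quantile normalization (23.5%). It was 16 to 21 without 1 library, with 21 without LKO 1 of the liver (45.6%). *Col27a1* had the smallest adjusted p (7.91e-09), and its log2 change in the liver was lower than in iWAT, GM and hypothalamus by -2.45, -2.23 and -2.26. For *Col3a1* (limma adjusted p = 0.000102) the liver change exceeded the others by 2.36, 1.86 and 2.25, and for *Col4a1* (limma adjusted p = 0.00398) by 1.58, 1.56 and 1.57. Each of these 9 contrasts of the liver with another tissue passed as well (limma adjusted p at most 0.00348). Of the 18 genes 12 passed the filter on low values in all 4 tissues. *Col14a1*, *Col27a1* and *Col4a5* passed it in 3, and *Col11a1*, *Col28a1* and *Col8a2* in 1. On the log2(FPKM + 1) scale the change of a gene under 1 FPKM is understated. This touches the contrast of *Col27a1* with GM, where its highest value was 0.624 FPKM. The contrast of iWAT with GM passed for *Col28a1* alone (0.73, limma adjusted p = 0.00445), which did not pass the filter in GM (at most 0.638 FPKM), so that this value restates its change in iWAT. The tissues have separate Ctrl libraries, though nothing tells if 1 mouse gave several of them.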

How the data were processed

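Bulk RNA of 4 tissues (3 libraries per genotype and tissue) was prepared with the TruSeq RNA Library Prep Kit v2, which does not keep strand, and read as 100 nt paired ends. The submitters' processing notes name FastQC 0.11.5, Trimmomatic 0.32, HISAT2 2.0.5, Bowtie2 2.2.6, STAR 2.5.2b and StringTie 1.3.3b and the mm10 genome, without their order. The authors deposited FPKM per gene, scaled to the fragments of each library, in a joined table of 24532 genes. The TPM deposited by the authors in a table per library were used as an alternative, and the deposited coverage gave the depth and an alternative for chain ratios. No scaling between libraries is stated for these values.

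LKO was compared with Ctrl within a tissue by limma (version 3.58.1, R 4.3.3, trended empirical Bayes) on log2(FPKM + 1), for genes that reached 1 FPKM in 3 or more of the 6 libraries, with Benjamini-Hochberg adjustment over all genes tested. A fold change of at least 1.5 was required. Tissues were compared by the genotype by tissue interaction (F test) in a fit that held the 24 libraries. Chain ratios were compared with two-sided exact permutation tests. Named genes were 12 fixed collagens of types I, III, IV, V, VI, XV and XVIII, every other collagen past a criterion, and up to 4 genes of each pathway list with the largest log2 change in the liver and up to 2 in iWAT and GM. Other collagens are named after their values were seen. The members and the lists were chosen with earlier results of these data known. The fits were tested on simulated data. 1 gene of the pathway lists that this rule names is not reported here. Collagen protein sequences were not analysed here. Tables were read in Python 3.11.15 (pandas 2.3.3 and numpy 2.4.6), exact tests used scipy 1.17.1 and plots matplotlib 3.10.9. The alternatives were median-ratio scaling, quantile normalization, TPM, a pseudocount of 0.1, no filter, a mean of at least 5 FPKM, ordinary variances, all 24 libraries in 1 fit, a replicate block, a 2-fold limit and leaving out each library in turn.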

Additional observations from a re-analysis of the deposited data

Results flagged for a closer look

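For 18 collagen genes the LKO effect differed between the 4 tissues by an F test over the interaction contrasts in limma (Benjamini-Hochberg adjusted over all 15794 genes tested, of which 33.5% passed). Among fibrillar chains the adjusted p was 7.91e-09 for *Col27a1*, 0.000102 for *Col3a1*, 0.000287 for *Col5a2*, 0.000433 for *Col1a2*, 0.000756 for *Col1a1*, 0.00412 for *Col5a1*, 0.0353 for *Col11a1* and 0.0406 for *Col5a3*. For the type IV chains it was 0.00398 for *Col4a1*, 0.00419 for *Col4a2* and 0.0104 for *Col4a5*. For the beaded filament chains it was 0.000139 for *Col28a1*, 0.000315 for *Col6a1*, 0.000375 for *Col6a3* and 0.00275 for *Col6a2*, and for the others 0.00084 for *Col14a1*, 0.0109 for *Col16a1* and 0.012 for *Col8a2*. Of these genes *Col11a1* and *Col8a2* passed the filter on low values in the hypothalamus alone and *Col28a1* in iWAT alone, so that their change elsewhere was held near 0 by the low level and the pseudocount. *Col4a5* did not pass it in the liver, *Col27a1* not in GM and *Col14a1* not in the hypothalamus.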

How the results depend on the processing

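In the liver the number of collagens called under the adjusted criterion was 13 with a replicate block, 10 at a fold change of at least 2, 11 with ordinary variances and 6 of 8 tested at a mean of at least 5 FPKM (6 under the unadjusted criterion too), and 13 to 15 without 1 library. It was 14 in the fit of all 24 libraries, where *Col5a3* was called lower and 3167 of all genes were called. Over all genes the count was 1067 at a fold change of at least 2, 1920 after median-ratio scaling, 1645 after quantile normalization, 1776 at a mean of at least 5 FPKM, 1499 with ordinary variances and 1804 to 4325 without 1 library. The liver difference of the fibrillar minus type IV level was -0.17 without a filter, -0.076 with *Col15a1* and *Col18a1* added, and -0.17 without *Col27a1* and *Col5a3* (chosen after seeing the data), which gave -0.31 in iWAT and -0.17 in the hypothalamus. At a mean of at least 5 FPKM the hypothalamus value was -0.24. In the fit of all 24 libraries, 1 collagen passed the adjusted criterion in iWAT (*Col28a1*), where 317 of 12288 genes passed. In GM 1 passed the unadjusted criterion (*Col7a1*), where 144 of 10877 genes passed. In iWAT 0 passed the unadjusted criterion at a fold change of at least 2 or at a mean of at least 5 FPKM. Without 1 library 1 to 5 passed it, as did 312 to 619 of all 12288 genes. The 5 passed without Ctrl 1, where 610 of all genes did. In the hypothalamus 0 to 1 passed it without 1 library (*Col25a1* without LKO 1, where 54 of 13828 genes passed). The sign turned for liver *Col15a1* with TPM (0.0029) and for liver *Col13a1* after median-ratio scaling (-0.051) and quantile normalization (-0.21). Leaving out 1 library moved the log2 change across 0 in iWAT for *Col6a1* (-0.23 to 0.055), *Col6a2* (-0.22 to 0.067), *Col6a3* (-0.22 to 0.11), *Col18a1* (-0.098 to 0.16), *Col14a1* (-0.47 to 0.030) and *Col16a1* (-0.39 to 0.040), in GM for *Col3a1* (-0.11 to 0.38), *Col4a1* (-0.017 to 0.36) and *Col18a1* (-0.016 to 0.26), and in the hypothalamus for *Col1a1* (-0.24 to 0.093), *Col4a2* (-0.22 to 0.080), *Col6a2* (-0.34 to 0.024), *Col18a1* (-0.19 to 0.11), *Col16a1* (-0.20 to 0.057) and *Col13a1* (-0.16 to 0.11). Where no cause is named, the cause was not tested. In no tissue did every pair of same-numbered libraries deviate together with a correlation above 0.1 (correlations -0.135 to 0.354 over all pairs), so the numbers were not taken to pair them, and the replicate block gave 3031 genes in the liver. Depth limits values near 1 FPKM, and counting error could not be given without counts.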
